A study of Mus musculus with 2 samples.

Results

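Mouse genes that have never been given a descriptive name carry placeholder symbols, either Gm with a number (a predicted gene model) or a clone name ending in Rik (a cDNA from the RIKEN collection). The regions described here are the STAT5 peaks whose overlapped genes, or whose nearer neighbour, are such models in the authors' own neighbour columns. A peak was kept if every gene it overlapped was a Gm or Rik model, or if it overlapped no gene and the nearer of its neighbours was one. Mitochondrial peaks were left out. This gave 314 peaks of the 2054 in both lists together, or of the 1998 on nuclear chromosomes.

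The peaks come from CUT&Tag, in which an antibody, here against STAT5, tethers a transposase that cuts DNA wherever the target sits on chromatin. The cells were a primary line of valve interstitial cells from mouse aortic valve, which resemble fibroblasts and maintain the leaflets, kept for 7 days in an osteogenic medium with 100 nM dexamethasone, 10 mM glycerol phosphate and ascorbic acid 2-phosphate at 50 µM. One group had the genotype Tert+/+ (wild type below) and the other Tert-/- (knockout), with 1 library for each and the same medium and antibody in both. The animals' age and number, a cell group without the osteogenic medium, and the depth of the libraries are not given in the sources used here.

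Each genotype is a single library, so differences between the lists have no replicate check, and genotype, library and depth cannot be told apart. A list of peaks does not measure expression, so the labelled cell type was not checked against its markers. Each peak's score is the authors' peak shape score, a unitless value that is higher the better the signal matches a peak shape, and its p-value is theirs too and not adjusted for the number of peaks. Both serve only to order and select peaks inside the same list. Ranges in parentheses after a share are 95% intervals by the exact Clopper-Pearson method; they reflect only counting error and treat peaks as independent, although peaks at 1 model share a place.

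STAT5 is a transcription factor that cytokine and growth factor receptors switch on through JAK kinases, after which it enters the nucleus as a pair and binds the palindrome TTCNNNGAA. Many Gm models are long non-coding RNAs, single-exon transcripts or pseudogenes, and many Rik models are transcripts, coding or not, with no known function. A few Gm models lie on satellite DNA, tandem repeats of which many, though not all, pack around centromeres. Tert encodes the catalytic subunit of telomerase, which extends the repeats at chromosome ends.

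The sequences that could be read were the RefSeq promoter windows of GRCm38.p6, the assembly that mm10 stands for, each running from 250 bases before to 50 bases after an annotated start. Of the models with a peak, 53 had 66 such windows. None of the 314 peaks overlapped any window in the table, against 0.701% of all 1998 nuclear peaks (14 peaks), and none overlapped a miRNA hairpin. A count of 0 allows up to 3. All 14 overlapping peaks were at other genes. The rule drops peaks that overlap a named gene or have one as nearer neighbour. Overlaps with windows of named genes were thus largely shut out by the selection, and nothing is read from the 0. The windows of 1700019D03Rik (chr1:52971997-52972296, minus strand) and Gm20594 (chr6:79817781-79818080, plus strand) came closest to a peak of their own model, with gaps of 51 and 105 bp, and are shown for that reason. They are written 5′ to 3′ with capitals from the annotated start onward.
1700019D03Rik: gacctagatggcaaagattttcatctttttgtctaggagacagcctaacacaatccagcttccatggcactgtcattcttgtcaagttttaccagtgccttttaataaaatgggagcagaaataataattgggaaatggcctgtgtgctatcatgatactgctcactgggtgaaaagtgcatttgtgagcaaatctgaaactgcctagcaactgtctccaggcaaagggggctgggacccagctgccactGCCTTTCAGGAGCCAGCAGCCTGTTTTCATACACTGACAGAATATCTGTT
Gm20594: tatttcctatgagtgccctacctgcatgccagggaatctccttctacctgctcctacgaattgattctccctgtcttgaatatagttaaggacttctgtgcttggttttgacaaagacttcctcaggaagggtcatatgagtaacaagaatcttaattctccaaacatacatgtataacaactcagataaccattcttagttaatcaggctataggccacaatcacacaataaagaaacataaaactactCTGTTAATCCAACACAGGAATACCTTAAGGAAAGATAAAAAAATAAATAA
The wild-type peak beside the first window (chr1:52972348-52972427) scored 1.08 with a p-value of 0.140. The wild-type peak beside the second (chr6:79818186-79818268) scored 1.47 with a p-value of 0.0707. Neither window holds the STAT5 palindrome.

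The palindrome TTCNNNGAA, which reads the same on both strands, occurred in 7 of the 66 windows (10.6%), against 8.30% of all 32851 windows of this length in the table. The sites at the models with a wild-type peak inside their body are shown, with the palindrome in capitals and up to 10 bases on each side. They lie at chr1:52963402-52963430, chr4:103291030-103291058 and chr19:23652920-23652948, all on the minus strand.
1700019D03Rik: gaaagctagcTTCTGAGAAgttagtagaa
4921539E11Rik: ggacaatgggTTCAAAGAAagggtgaaag
1700028P14Rik: tctcactgtaTTCTGGGAAatgtagttta
The windows with these sites lay 8866, 42569 and 36761 bp from the model's own peak. No peak covered these sites. The sequences under the peaks were not analysed here.

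The wild-type list held 170 such peaks of 1181 nuclear ones, 14.4% (95% interval 12.4 to 16.5%). The knockout list held 144 of 817, 17.6% (15.1 to 20.4%). The intervals of the shares overlap. Gm models made up 136 wild-type and 124 knockout peaks, and Rik models the other 34 (95% interval 14.3 to 26.8%) and 20 (8.69 to 20.6%).

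Few of the peaks lay in a model. In the wild type 16 of 170 (9.41%) were inside one and 154 were beside one. In the knockout 12 of 144 (8.33%) were inside and 132 beside. Inside peaks were divided evenly between Gm and Rik on the wild-type side, with 8 each, and in the knockout 9 were in a Gm and 3 in a Rik model.

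The wild-type inside peaks had similar scores. At the Rik models the scores were 1.47 in 4921539E11Rik, 1.47 in 1700028P14Rik, 1.46 in B020011L13Rik, 1.40 in 5430427O19Rik, 1.09 in 1700015F17Rik, 1.08 in 1700019D03Rik, 1.06 in 1700012P22Rik and 1.04 in 4931428L18Rik. At the Gm models they were 2.07 in Gm43333, 1.47 in Gm20594, 1.45 in Gm29609, 1.42 in Gm15262, 1.41 in Gm49948, 1.07 in Gm42514, 1.06 in Gm44712 and 0.908 in Gm15155. Thus 15 of the 16 lay between 0.908 and 1.47. RefSeq places 14 of the 16 (87.5%) inside a protein-coding gene, either the model itself or another one such as Gtf3c2, a subunit of an RNA polymerase III factor, at Gm29609.

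The knockout inside peaks had a wider range of scores. Apart from the Gm10800, Gm10801 and Gm37240 peaks described below, they scored 1.15 in Gm364, 1.14 in 5730480H06Rik, 1.08 in Gm7697, 1.03 in C130026I21Rik, 0.991 in Gm136, 0.961 in Gm37556, 0.954 in Gm3500 and 0.862 in 1700057G04Rik. RefSeq places 5 of the 12 (41.7%) inside a protein-coding gene, each of them a model of its own.

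Most of the peaks beside a model were far from it. The median distance of wild-type peaks was 73033.5 bp (336 to 1617378 bp) and that of knockout peaks 82805 bp (18 to 1256957 bp). At most 5000 bp separated 14 wild-type peaks (9.09%) and 11 knockout peaks (8.33%) from their model, and over 100 kb separated 68 (44.2%) and 59 (44.7%). Within 50 kb were 68 of 154 (44.2%, 36.2 to 52.4%) and 55 of 132 (41.7%, 33.2 to 50.6%), and the intervals overlap. Counting inside peaks as 0 bp, wild-type peaks at Rik models had a median distance of 11554.5 bp and those at Gm models 78490 bp, whereas the knockout medians were 85947 bp for Rik and 59196.5 bp for Gm. The far end was held by Gm37196 in the wild type, whose 2 peaks lay 1353587 and 1617378 bp away, and by Gm45760 in the knockout.

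**Figure D1:**
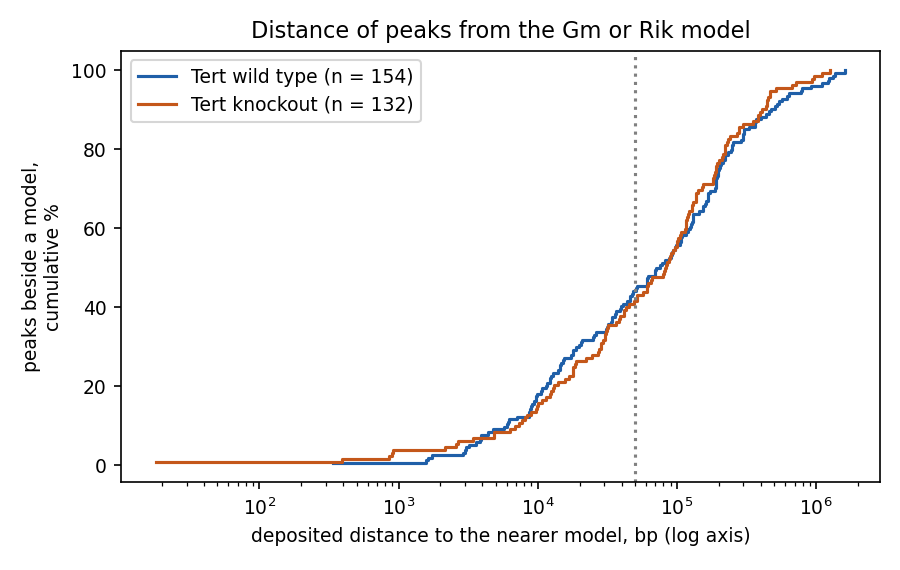
Cumulative share (%) of the peaks beside a Gm or Rik model (vertical axis) against the deposited distance to that model in bp (log axis), for 154 wild-type and 132 knockout peaks. The curves run close together, and the dotted line marks 50 kb, by which 44.2% and 41.7% of the peaks had been reached.

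The other neighbour of a peak beside a model was more often a named gene than a placeholder. It was a named gene at 84 of the 154 wild-type peaks (54.5%) and 80 of the 132 knockout peaks (60.6%). Both neighbours were models at 54 wild-type peaks (35.1%) and 51 knockout peaks (38.6%). The same shares for other nuclear peaks were not worked out. On chromosome Y all 3 wild-type peaks (at Gm3376, Gm20834 and Gm29110) and the single knockout peak (at Gm21767) were at models. Chromosomes 1 and 3 gave high shares in both lists, namely 27 of 97 (27.8%) and 19 of 65 (29.2%) on the wild-type side, and 21 of 62 (33.9%) and 18 of 53 on the knockout side. Chromosome 11 gave low ones, 4 of 87 (4.60%) in the wild-type list against 0 of 60 in the knockout list. So did chromosome 4, with 4 of 86 (4.65%) and 4 of 49 (8.16%), and chromosome 16, with 3 of 56 (5.36%) and 1 of 24 (4.17%). The share of each chromosome's genes that are models was not worked out, so nothing is read from these shares.

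The rule decides by distance, so some peaks were close calls. Just inside it were a wild-type peak 3864 bp from 4930402H24Rik and 4736 bp from Slc4a11, a membrane transporter gene, and a knockout peak 392 bp from Gm43756 and 802 bp from Aacs, an enzyme of ketone body use. Just outside were a wild-type peak 929 bp from Trim67 and 1212 bp from 2810004N23Rik, and a knockout peak 6655 bp from Pgm5 and 6834 bp from Gm10053. No peak had equal distances.

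At the models, wild-type peaks passed a deposited p of 0.05 in 55 of 170 cases, 32.4% (25.4 to 39.9%), against 31.2% of all nuclear wild-type peaks. Knockout peaks passed in 9 of 144, 6.25% (2.90 to 11.5%), against 3.18% of all nuclear knockout peaks. The wild-type share was near the background, and the interval of the knockout share includes its background. At a p of 0.01 the counts were 31 of 170 (18.2%, 12.7 to 24.9%) against 17.3%, and 4 of 144 (2.78%, 0.762 to 6.96%) against 0.612%. Of the 5 nuclear knockout peaks with such a p-value, 4 were at models, against 17.6% of all nuclear knockout peaks. A count of this size is too small for a reading.

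The knockout counts rested on few peaks. Without the 5 peaks at the satellite models Gm10800 and Gm10801 the count at 0.05 was 6 of 139 (4.32%, 1.60 to 9.16%) against 2.83% of nuclear knockout peaks, and at 0.01 it was 2 of 139 (1.44%, 0.175 to 5.10%) against 0.369%. Without the peaks past the last gene of a chromosome the wild-type counts were 43 of 155 (27.7%) against 30.1% and 19 of 155 (12.3%) against 16.1%, on the other side of the background.

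The median score of the wild-type peaks was 1.38 (0.846 to 18.6), that of all nuclear wild-type peaks 1.18. Without the peaks past the last gene of a chromosome the median at models was 1.20, near that of all nuclear peaks. In the knockout it was 0.984 (0.842 to 3.34) against 0.977. Inside and beside peaks had medians of 1.41 and 1.37 in the wild-type list, and 1.11 and 0.984 in the knockout list. In the wild type 1 of 16 inside peaks had a p-value under 0.05 (6.25%, 0.158 to 30.2%), against 31.2% of all nuclear peaks. Of those beside, 54 of 154 did (35.1%), and 12 of the 54 lay past the last gene of a chromosome. In the knockout 4 of 12 inside (33.3%, 9.92 to 65.1%) and 5 of 132 beside (3.79%) did, against 3.18%. The inside counts are small, so nothing is read from the contrast. The wild-type inside peak under 0.05 was that in Gm43333 (chr5:104072300-104072379, score 2.07, p-value 0.0190), which lies in the coding model Gm17660 of RefSeq. The knockout 4 were the Gm10801 pair, Gm10800 and Gm37240.

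**Figure D2:**
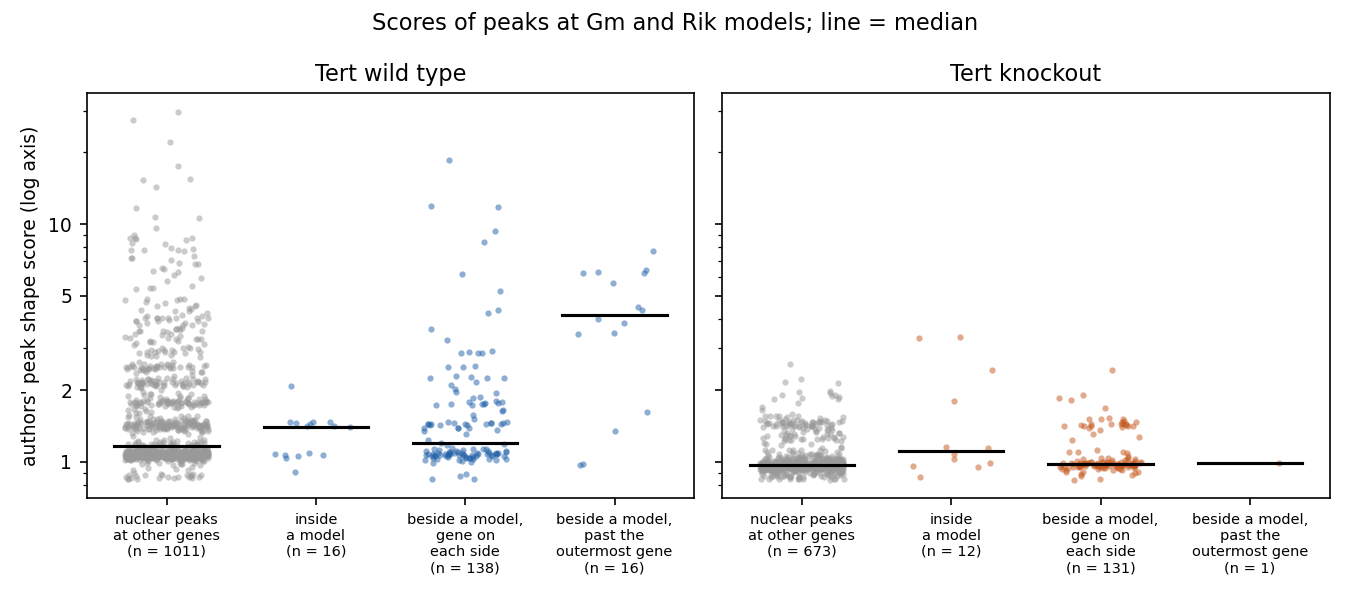
Authors' peak shape score (log axis) of each nuclear peak in the wild-type (left) and knockout (right) list, for peaks at other genes and for peaks inside a model, beside a model with a gene on each side, and beside a model past the outermost gene at either end of a chromosome, with the median as a line. The 16 wild-type peaks past the outermost gene sit mostly above the others, and the highest knockout points are peaks inside a model, reaching 3.34.

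Peaks differed in width between the lists as a whole, and those at the models did so too. The 170 wild-type peaks were 85.8 bp ± 8.11 (SD) wide and the 144 knockout peaks 242 bp ± 47.8 (SD). Any count of overlaps between the lists depends on these widths.

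The highest-scoring wild-type peaks lay outside their model. Of the 10 highest-scoring nuclear peaks of the list, 3 were at models, and of the 50 highest, 11 were. The share over all nuclear wild-type peaks was 14.4%, and the counts are too small for a reading. The peak at Gm44070 (chr6:132463726-132463808) ranked 4 in the list by its score of 18.6 (p-value of 1.53e-77), lay 61224 bp from the model, and had another model, Gm8882, on its other side. The peak at Gm38110 (chr1:44951212-44951292) had a score of 11.9 and lay 192719 bp from it. A second Gm38110 peak at chr1:44956379-44956465 had a score of 1.06, so the high value did not extend to its neighbour.

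Rik models held the next positions. The peak at 5730522E02Rik (chr11:25100103-25100196) scored 11.7 and lay 502566 bp from it, with Bcl11a, a zinc-finger repressor of fetal globin genes, 925979 bp away on the other side. The second 5730522E02Rik peak (chr11:25128655-25128735) scored 1.03. The peak at 1700020N01Rik (chr10:21588641-21588722) scored 9.33 at 4422 bp, with a second at 1.44 (chr10:21655781-21655860). The peak at Gm42826 (chr3:125228382-125228463) scored 8.38 at 8828 bp, with a second at 1.11 (chr3:125204655-125204741). At each of these 4 models with 2 peaks, 1 score was high and the other was from 1.03 to 1.44, against the list's median of 1.18.

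In the knockout 4 of the 10 highest-scoring nuclear peaks were at models, and 13 of the 50 highest. The share over all nuclear knockout peaks was 17.6%, and these counts too are small, so nothing is read from them. The first 2 places went to Gm10801 (chr2:98662225-98662410, score 3.34, p-value 0.000424) and Gm10800 (chr2:98666977-98667259, score 3.31, p-value 0.000459), and the peaks lay inside those models. A further 3 peaks lay between and beside them, at chr2:98662552-98662853 (score 1.81, p-value 0.0354), chr2:98664941-98665219 (score 0.936, p-value 0.175) and chr2:98666308-98666528 (score 1.53, p-value 0.0631). The 5 peaks spanned 5035 bp. Both models are among those known to be annotated on satellite-like repeats, where reads can map to many copies, and the treatment of such reads is not stated in the labels.

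The wild-type list had no peak at Gm10800 or Gm10801. A count of 0 of 170 allows up to 3 peaks, or 1.76%. Its only peak at a satellite model was at Gm10722 (chr9:3000500-3000585, score 0.966, p-value 0.167), 336 bp from the model and before the first gene of chromosome 9. The part of multiply mapping reads in these peaks was not tested.

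Below the satellite models the knockout order ran as follows. Gm37240 (chr3:84663493-84663741) held a peak of score 2.44 (p-value 0.00732) in its body, and 4933436N17Rik (chr13:36565087-36565299) one of score 2.44 (p-value 0.00739) at 16791 bp. The remaining peaks with p-values under 0.05 were at Gm38386 (chr2:6490408-6490745, 1.90), Gm38269 (chr1:145195563-145195921, 1.85), Gm38318 (chr8:108805852-108806194, 1.81) and Gm14147 (chr2:151217831-151218134, 1.68). Except at Gm37240, these peaks were 7297 to 127472 bp from their model.

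A group of wild-type peaks lay past the last gene of a chromosome, where the deposited columns name no gene on the higher side. In the wild type 15 of 170 peaks at models did so (8.82%, 5.02 to 14.1%), against 1.95% of all nuclear wild-type peaks and 8 of 1011 nuclear peaks at other genes (0.791%, 0.342 to 1.55%). In the knockout it was 0 of 144, against 0.00% of all 817, and a count of 0 allows up to 3 peaks, or 2.08% of the 144. The peak nearest to the end of a chromosome has 1 neighbour only, so a placeholder on that side alone makes it a member of the set. The part of this in the shares was not tested.

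The end peaks had high scores and were wide for their list. Their scores ran from 0.976 to 7.72 with a median of 4.34, and 12 of the 15 had a p-value under 0.05. Their widths ran from 77 to 120 bp with a median of 104, against a median of 83 bp for the other wild-type peaks at models. The 8 end peaks at named genes had a median score of 3.61, so the high values were not particular to the models.

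The 15 lay at 9 models. Gm49069 on chromosome 14 had 4 within 631 bp (chr14:124801590-124802220) with scores of 4.46, 3.45, 7.72 and 6.43. Gm45871 on chromosome 18 had 3 within 545 bp (chr18:90601894-90602438) with scores of 1.62, 5.66 and 6.24. Gm14496 on chromosome 2 had 2, at chr2:182012771-182012874 and chr2:182013021-182013140, with scores of 6.30 and 6.25. These 3 models held 9 of the 15.

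Single end peaks lay at the other 6 models. Gm38194 on chromosome 1 scored 4.34, A630089N07Rik on chromosome 16 scored 3.99, Gm43307 on chromosome 3 scored 3.82 and Gm21060 on chromosome 19 scored 3.48. Gm44043 on chromosome 6 (1.35, p-value 0.0887) and Gm50010 on chromosome 17 (0.976, p-value 0.165) did not pass 0.05. All 15 also lay past the last gene that RefSeq places on the chromosome, by 292 to 124427 bp. The distance to the telomere repeats was not analysed here.

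On the 14 chromosomes with a wild-type end peak the last knockout peak stopped 1119399 to 8868332 bp before the last wild-type one. These chromosomes were picked by their wild-type end peak, and the usual spacing of knockout peaks was not measured. The gaps are therefore a description, and nothing is read from them. It did reach a chromosome start, with a peak before the first gene of chromosome 3 at Gm37338 (chr3:3002617-3002853, score 0.993). Whether the lists differ here through genotype, depth or the treatment of repeats cannot be told apart with 1 library each.

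**Figure D3:**
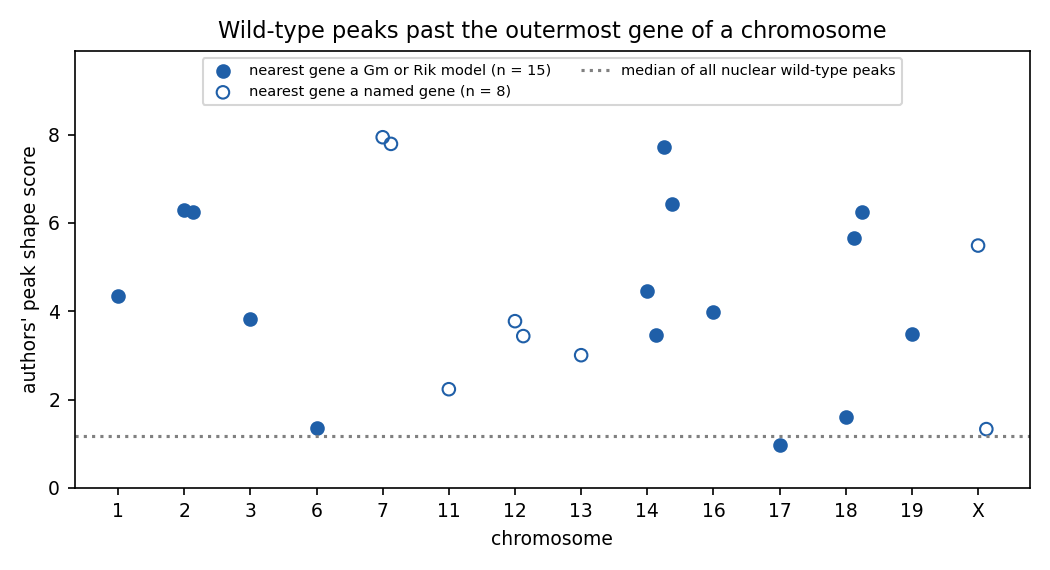
Authors' peak shape score (vertical axis) of the 23 wild-type peaks past the last gene of a chromosome, by chromosome, with filled points for peaks whose nearest gene is a Gm or Rik model and open points for those at named genes. Most points lie above the dotted line at 1.18, the median of all nuclear wild-type peaks, and chromosomes 14 and 18 carry 4 and 3 model peaks.

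Peaks within 5000 bp of each other in runs of at least 3 were called clusters. Among wild-type peaks at models 7 of 170 (4.12%) were in one, against 4.06% of nuclear peaks, and these were the Gm49069 and Gm45871 groups. In the knockout 5 of 144 (3.47%, 1.14 to 7.92%) were, against 1.10%, all at Gm10800 and Gm10801.

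Peaks of the lists coincided at 1 model. Counting any overlap with the opposite list from 1 bp upward, the share was 1 of 170 (0.588%) against 0.931% of nuclear wild-type peaks, and 1 of 144 (0.694%) against 1.10% of nuclear knockout peaks. The position was beside D430019H16Rik, where the wild-type peak (chr12:105524727-105524846, score 1.35, p-value 0.0893) and the knockout peak (chr12:105524642-105524743, score 0.922, p-value 0.178) had 17 bp in common. Neither passed 0.05, and Bdkrb2, the bradykinin B2 receptor gene, was the neighbour on the other side.

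The models themselves numbered 271, of which 221 were Gm and 50 Rik. The wild-type list had 152 and the knockout list 134, and 15 were in both (9.87% and 11.2%). The same share for named genes was not worked out here. At 14 of these 15 the peaks lay apart. The gap was 774 bp at Gm49666, 12931 bp at Gm44436, 22973 bp at Gm45760, 23925 bp at Gm47454 and 35977 bp at Gm37296. It was 68845 bp at Gm38122, 115595 bp at Gm37877, 140556 bp at Gm37819, 165637 bp at Gm36971 and 183541 bp at Gm47374. At Gm47890, Gm38285, Gm20594 and Gm37789 it was 212101, 258219, 669446 and 1091314 bp.

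Sharing a model therefore seldom meant sharing a place. At 10 of the 15 both peaks lay over 50 kb from the model. None of the 15 knockout peaks had a p-value under 0.05 (0.0779 to 0.178), which at a background of 3.18% is no result about these models. Of the nearest wild-type peaks those at Gm37819 (score 1.97) and Gm37296 (1.74) did.

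**Figure D4:**
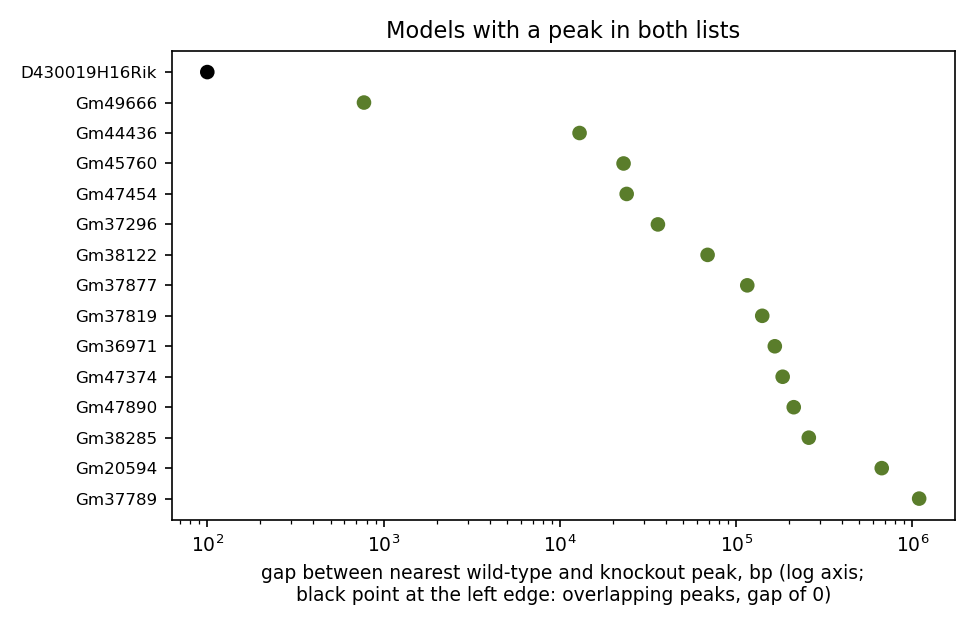
Gap in bp (log axis) between the nearest wild-type and knockout peaks of each of the 15 models with a peak in both lists, with the overlapping pair of D430019H16Rik drawn as a black point at the left edge. For 9 of the models the gap is over 50 kb, and the median gap is 115595 bp.

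Models with several peaks were few. The wild type had 15 with at least 2 (33 peaks). Beside the end models and those with a high peak, these were Gm10230, Gm20594, Gm22574, Gm37196, Gm37877, Gm38049, Gm43826 and Gm47987. The knockout had 9 (19 peaks), namely Gm10801 with 3, and Gm10800, C630044B11Rik, Gm1527, Gm37731, Gm37957, Gm38199, Gm43444 and Gm45426 with 2 each. Among the 8 wild-type models just named, the peaks with p-values under 0.05 were 1 of the pair at Gm20594 (chr6:79909704-79909793, score 2.25), 1 of the pair at Gm22574, a small nucleolar RNA gene (chr13:86839987-86840066, score 1.78), and 1 of the pair at Gm47987 (chr12:67693380-67693462, score 2.10). In the knockout the multi-peak models outside the satellite cluster had no peak under 0.05. The background is 31.2% of nuclear wild-type and 3.18% of nuclear knockout peaks, so these few peaks are no result about the models.

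A placeholder as nearest gene does not mean that a peak lies away from named genes, since many models are annotated inside the introns or on the opposite strand of larger ones. Gene extents of RefSeq were therefore laid over the peaks. In the wild type 40 of 170 peaks (23.5%, 17.4 to 30.6%) lay inside a RefSeq protein-coding gene, against 47.2% of nuclear wild-type peaks. In the knockout 29 of 144 did (20.1%, 13.9 to 27.6%), against 43.9%. The set was defined by overlapping no named gene in the authors' columns, so nothing is read from these shares.

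The neighbour columns and the RefSeq extents can disagree on whether a peak is in a gene. Of the peaks beside a model, which overlap no gene in the authors' columns, 26 of 154 wild-type peaks (16.9%, 11.3 to 23.8%) lay inside a RefSeq coding gene, against 19 of 491 at named neighbours (3.87%, 2.35 to 5.98%). In the knockout it was 24 of 132 (18.2%, 12.0 to 25.8%) against 16 of 347 (4.61%, 2.66 to 7.38%). In all 26 and all 24 cases the model's own edge lay in the same coding gene. The neighbour columns that chose the peaks also decide whether a host gene is seen, so these shares are a description and nothing is read from their difference. A further 12 (7.79%) and 15 (11.4%) lay in a RefSeq lncRNA gene and no coding gene, and 113 (73.4%) and 92 (69.7%) in no RefSeq gene.

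**Figure D5:**
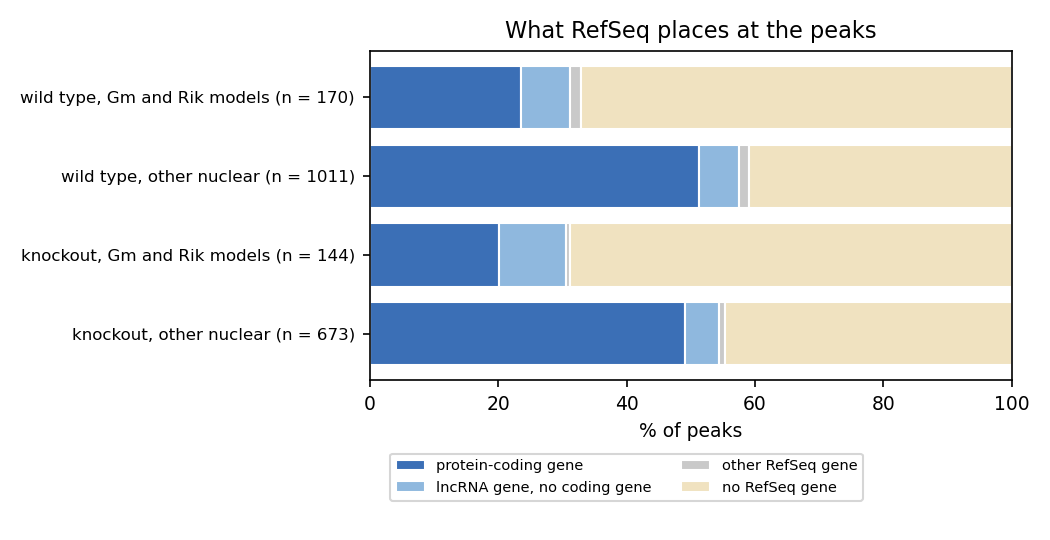
Share of peaks (%) inside a RefSeq protein-coding gene, in a lncRNA gene but no coding gene, in another RefSeq gene or in none, for peaks at Gm and Rik models and for the other nuclear peaks of each list. Coding genes hold 23.5% and 20.1% of the peaks at models and 51.2% and 49.0% of the others.

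The coding hosts of peaks beside a model or in one were mostly long genes. There were 46 with a name of their own, 28 on the wild-type side and 22 on the knockout side. Their median length was 354 kb (24.1 to 1970 kb), and 40 of the 46 were over 100 kb. Genes chosen for holding both a model and a peak tend to be long by that choice, so the lengths are a description.

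Of the hosts, 4 held peaks in both lists, at different places. Chl1, a neural cell adhesion gene, held a wild-type and a knockout peak 12931 bp apart, both nearest to Gm44436. Gphn, which encodes the synaptic scaffold gephyrin, held peaks 70379 bp apart at Gm48231 and Gm48225. Dlg2, another synaptic scaffold gene, held peaks 111181 bp apart at Gm45129 and Gm45130. Immp2l, a subunit of a mitochondrial inner membrane peptidase, held peaks 183541 bp apart at Gm47374.

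Of the wild-type peaks in a RefSeq coding gene with a name, 4 of 30 (13.3%, 3.76 to 30.7%) had a p-value under 0.05. The background was 31.2% of all nuclear wild-type peaks. In the knockout 1 of 24 did (4.17%, 0.105 to 21.1%), against 3.18%. The knockout count was near the background. The 30 include the 1700015F17Rik peak, whose RefSeq gene Pttg1ip2 is the model itself, and 29 lay in the hosts counted above. The upper end of the wild-type interval is too close to its background for a reading. The wild-type hosts were Dst, a cytoskeletal linker gene (chr1:33990988-33991069, score 2.28, p-value 0.0112), Dlg2 (chr7:91961412-91961496, 2.02), Negr1, a neuronal adhesion gene (chr3:157287238-157287318, 1.75), and Adgrl3, an adhesion receptor gene (chr5:81820556-81820641, 1.74). The knockout host was Zfhx3, a zinc-finger homeobox factor gene, which holds the Gm38318 peak.

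Further wild-type hosts without a peak under 0.05 included Notch2, a receptor of the Notch pathway, at Gm42820 (chr3:98112833-98112918, score 1.08), Unc5c, a netrin receptor gene with 2 peaks at Gm43826 (scores 1.10 and 1.09), and Camk2d, a calcium-dependent kinase gene, with a peak in Gm42514 (1.07). Knockout hosts included Pdgfra, a growth factor receptor that marks fibroblasts, at Gm42803 (chr5:75183728-75183960, score 0.970). Ntrk2, a neurotrophin receptor gene, held 2 knockout peaks at C630044B11Rik (0.958 and 0.968), and Tnr, which encodes the matrix protein tenascin-R, held 2 at Gm37731 (0.976 and 0.939). All of these scores were near the median of their list.

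In lncRNA genes of RefSeq the higher wild-type scores were at Gm37908 in Gm34043 (chr10:83954577-83954658, 6.17) and at 1700092E16Rik in Gm34405 (chr10:84503563-84503642, 4.24). Next came Gm37337 in Gm34295 (2.52, deposited p-value 0.0059) and 2900078I11Rik in E130307A14Rik (1.85, 0.0322). Below them, Gm44831 lay in Snhg14, an imprinted small nucleolar RNA host gene on chromosome 7 (chr7:59624426-59624506, 1.78, p-value 0.0374). The share of this class under 0.05 was not worked out, and 31.2% of all nuclear wild-type peaks pass that limit. The highest knockout score in this class was at Gm14147, inside Gm14149.

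The neighbours on the other side were looked up on short gene lists. On lists of 20 STAT5 target genes and 21 JAK-STAT genes no other-side neighbour or host was found in either library. Of 23 osteogenic genes Phex, a phosphate-regulating endopeptidase, was a neighbour in the wild type at 1351722 bp. Of 16 valve fibroblast genes Col3a1, a fibrillar collagen, was the other neighbour of both Gm38110 peaks at 360245 and 355072 bp, and Pdgfra was a host. Of 8 markers of other cell types Cdh5, the endothelial cadherin, was a neighbour at 863331 bp. Of 14 satellite models 1 had a wild-type peak and 2 had 5 knockout peaks between them. Apart from the satellite models, no listed gene was within 50 kb as an other-side neighbour. Among nuclear peaks at named genes that overlap no gene, the farther neighbour was a STAT5 target at 1 of 491 wild-type and 1 of 347 knockout peaks, and a JAK-STAT gene at 1 and 0. The counts of 0 at the models are thus near the background.

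What the models are could be said for a minority. The RefSeq table held 64 of the 271 (23.6%), 35 of 221 Gm models (15.8%) and 29 of 50 Rik models (58.0%). Of the 64 matched models 46 were protein-coding (71.9%), 12 lncRNA (18.8%) and 4 pseudogenes, 1 was a transcribed pseudogene and 1 a small nucleolar RNA. Under 80% of the models matched, so a comparison of classes with the 24092 Gm and Rik genes of the table is void.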

How the data were processed

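Coordinates are those of mm10, per the submitters' processing notes. The gene annotation release, how duplicates were handled, the peak caller and the aligner are not given in the sources used here. The authors deposited 1 peak list per library, with a peak shape score, a p-value, a width and the neighbouring gene and distance on each side, per the file headers. The deposited p-value equalled the upper normal tail of the score within 1e-06 in all 1181 and 817 nuclear peaks.

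The peaks were selected from the deposited neighbour columns with pandas 2.3.3, numpy 2.4.6 and scipy 1.17.1 under Python 3.11.15, figures were drawn with matplotlib 3.10.9, and the overlap and selection steps were tested on simulated data. Shared means an overlap of at least 1 bp. Gene extents, promoter windows and types came from RefSeq tables of GRCm38.p6, matched by symbol. Of 57 peaks beside a matched model, the deposited distance was within 2 bp of the RefSeq one in 22 and within 5000 bp in 54. No genome sequence and no read counts were used, and no test was made between the libraries.

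Models were named if they had a peak in both lists, at least 2 in 1 list, 1 of the 10 highest scores of a list, an overlap between lists, a listed gene within 50 kb, a promoter overlap or a place on the satellite list. The peaks and gene lists were chosen with earlier results of these data known. Models with a peak inside, host genes, end peaks, Y-linked models, close calls and models with a printed sequence were named with their values in view. The alternatives varied which peaks were kept, the distance, the meaning of model and the overlap required, and 8 of the 32, 4 for each list, were added after seeing the data.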

Additional observations from a re-analysis of the deposited data

How the results depend on the processing

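Of 32 alternatives 16 gave the same value within the error used (the 95% interval for shares, a factor of 1.5 for counts) and 16 moved it. The share of nuclear peaks at models moved in the wild type from 14.4% to 7.11%, and in the knockout from 17.6% to 8.20%, when peaks beside a model had to lie within 50 kb, and to 11.0% and 14.1% without those inside a RefSeq protein-coding gene, an alternative added after seeing the data. Among knockout peaks with a p-value under 0.05 it was 34.6% (9 of 26). A p limit of 0.01 in place of 0.05 gave shares of 18.2% (wild type) and 2.78% (knockout). By RefSeq extents 5 knockout peaks in place of 12 lay inside a model. Of the 7 lost, 5 were at models missing from that table and 2 (C130026I21Rik and 5730480H06Rik) at models whose extent there does not reach the peak. Requiring an overlap of 50% of the shorter peak left 0 shared positions in each list, and counting peaks within 1000 bp gave 2 in each. With peaks of p under 0.1 alone, 5 wild-type and 2 knockout models had at least 2 peaks, and 0 models were in both lists. Within 50 kb, 2 models were in both lists. Each of these stricter settings keeps fewer peaks. No paired analysis was possible because each genotype has 1 library and the labels give no replicate numbers. The libraries' depth is unknown, so a peak missing from 1 list may lie under its detection limit.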
